A study of Mus musculus with 12 samples.

Results

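The basal and stress keratins, 7 genes, were followed through mouse mammary organoids in which WNT signalling was driven with a GSK3 inhibitor. They were chosen by name, Krt5, Krt14, Krt15, Krt17, Krt6a, Krt6b and Krt16, out of 25210 genes in the deposited count table, which holds 43 keratins. The choice was made with earlier results of these data known. All 7 passed the filter on low counts, which 15316 genes passed. The organoids were made from mammary glands of virgin FVB/N female mice aged 8 to 11 weeks, embedded in growth-factor-reduced Matrigel and kept in minimal medium without an added genetic change. Every culture was split over 4 arms for 7 days: DMSO as the vehicle, or CHIR99021 at 1, 1.5 or 3 µM. There were 3 cultures, each from 1 animal, and so 12 libraries, numbered here as culture 1, 2 and 3.

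Keratins are the intermediate filament proteins of epithelia. A type I keratin and a type II keratin assemble as an obligate pair. Krt5 (type II) and Krt14 (type I) are the pair of the basal layer in skin and of the basal or myoepithelial layer in the mammary gland. Krt15 is a type I keratin of basal cells and of the hair follicle bulge. Krt17 is a type I keratin of skin appendages that is also induced in wounded or inflamed epidermis. Krt6a and Krt6b (type II) and Krt16 (type I) are low in resting epidermis and are classic markers of injured or hyperproliferating epidermis. CHIR99021 inhibits GSK3, a kinase whose activity leads to the breakdown of β-catenin, and the design asks how the transcriptome changes as this pathway is activated in steps.

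All 7 genes lie on the minus strand, in the 2 keratin clusters of the mouse genome (GRCm38). The type I genes are on chromosome 11: Krt15 (ENSMUSG00000054146) at chr11:100131758-100135928, Krt14 (ENSMUSG00000045545) at chr11:100203162-100207548, Krt16 (ENSMUSG00000053797) at chr11:100246091-100248902 and Krt17 (ENSMUSG00000035557) at chr11:100256217-100261029. The type II genes are on chromosome 15: Krt6b (ENSMUSG00000023041) at chr15:101676034-101680289, Krt6a (ENSMUSG00000058354) at chr15:101689932-101694307 and Krt5 (ENSMUSG00000061527) at chr15:101707070-101712891. Each of the type II genes is overlapped by at least 1 predicted gene on the opposite strand. Whether the counting used the strand is not given in the sources used here, so reads of such pairs cannot be told apart.

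Krt6a and Krt6b are near copies of each other, which bears on every count below. Their coding sequences, of 1659 and 1662 bases, matched at 97.8% of aligned positions, with a longest identical run of 280 bases. Of all 50-base words in the transcripts of Krt6b, 50.1% also occurred in transcripts of other genes, and 44.5% in those of Krt6a. The share for Krt6a was 45.7%, of which Krt6b accounted for 40.2% of the words. The 150 coding bases with the most differences between the pair, coding bases 727 to 876 in GENCODE M21, show where reads can be assigned to 1 gene. The 19 differing bases are in capitals.
Krt6a: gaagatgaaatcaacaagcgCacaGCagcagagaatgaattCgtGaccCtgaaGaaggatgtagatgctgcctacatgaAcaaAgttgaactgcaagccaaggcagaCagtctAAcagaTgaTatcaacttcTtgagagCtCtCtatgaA
Krt6b: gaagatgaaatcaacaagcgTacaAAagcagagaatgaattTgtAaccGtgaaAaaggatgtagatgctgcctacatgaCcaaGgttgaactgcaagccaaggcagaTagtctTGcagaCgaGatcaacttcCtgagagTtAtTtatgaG
Krt16 shared 37.6% of its 50-base words with other genes, most of them with the predicted gene Gm11597 (25.2% of the words). For Krt14 the share was 13.9%, for Krt5 8.52%, for Krt17 3.99% and for Krt15 0.64%. Values of Krt6a and Krt6b, and to a lesser degree of Krt16, are therefore uncertain to the extent that reads in shared stretches were dropped or split.

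Library totals ran from 10.1 M counts (DMSO, culture 2) to 24.5 M counts (1.5 µM, culture 2; M, mega). Levels are given as CPM, counts per M counts with library sizes corrected by TMM factors (trimmed means of M values), and as CPM per kilobase of exon where genes are compared with each other. Changes are log2 fold changes from edgeR's quasi-likelihood test over all 15316 genes, with a Benjamini-Hochberg adjusted p under 0.05 counted as a call. The test gives no SE, so each SE after ± is the absolute log2 fold change divided by the square root of the test's F. It is an approximation and was not estimated for the coefficient itself. The libraries are bulk RNA of whole organoids, so more cells that express a keratin and more keratin RNA per cell cannot be told apart. Epithelial markers (Epcam, Cdh1, Cldn7) summed to 829 to 1331 CPM in DMSO and 1275 to 1423 CPM at 3 µM, and 1 of 3 was called higher. Of all genes, 29.9% were called higher at 3 µM and 27.7% lower. A summed level of 7 fibroblast markers differed widely between cultures, with 1624, 7372 and 20508 CPM in the DMSO libraries of cultures 1, 2 and 3 and 175, 972 and 4569 CPM at 3 µM. None of the 7 fibroblast genes was called at 3 µM, and 6 of the 7 were called lower in the fit with culture as a block, where 5335 of the 15316 genes were. Immune markers summed to 35.6 to 255 CPM in DMSO and 11.1 to 53.4 CPM at 3 µM, and 3 of the 4 tested were called lower. Endothelial markers summed to 217 to 467 CPM in DMSO and 22.8 to 76.9 CPM at 3 µM, and 4 of 4 were called lower. Among these markers only Cd3e, at 1.5 µM, was at 0 in all libraries of a group. Their part in the keratin changes was not tested.

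Of the 7 keratins, 6 rose with CHIR99021, and they rose by very different amounts. At 3 µM against DMSO, the basal pair Krt5 and Krt14 rose about as much as each other, Krt17 rose more, and the injury keratins Krt6a, Krt16 and Krt6b went from the lowest levels of the 7 to levels near that of Krt5 per kilobase of exon. Krt15 did not rise. Because the members were chosen with earlier results known, the shares of all genes given beside their counts are a description and do not test the set. The 6 members called higher at 3 µM stand beside a background of 29.9% of all genes called higher, and 57.5% called in either direction. At 1.5 µM the same count, 6 of 7, stands beside 15.4% of genes called higher and 27.3% called in either direction. At 1 µM, 2 of 7 were called, both higher, beside 0.189% of genes called higher and 0.242% called in either direction.

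**Figure D1:**
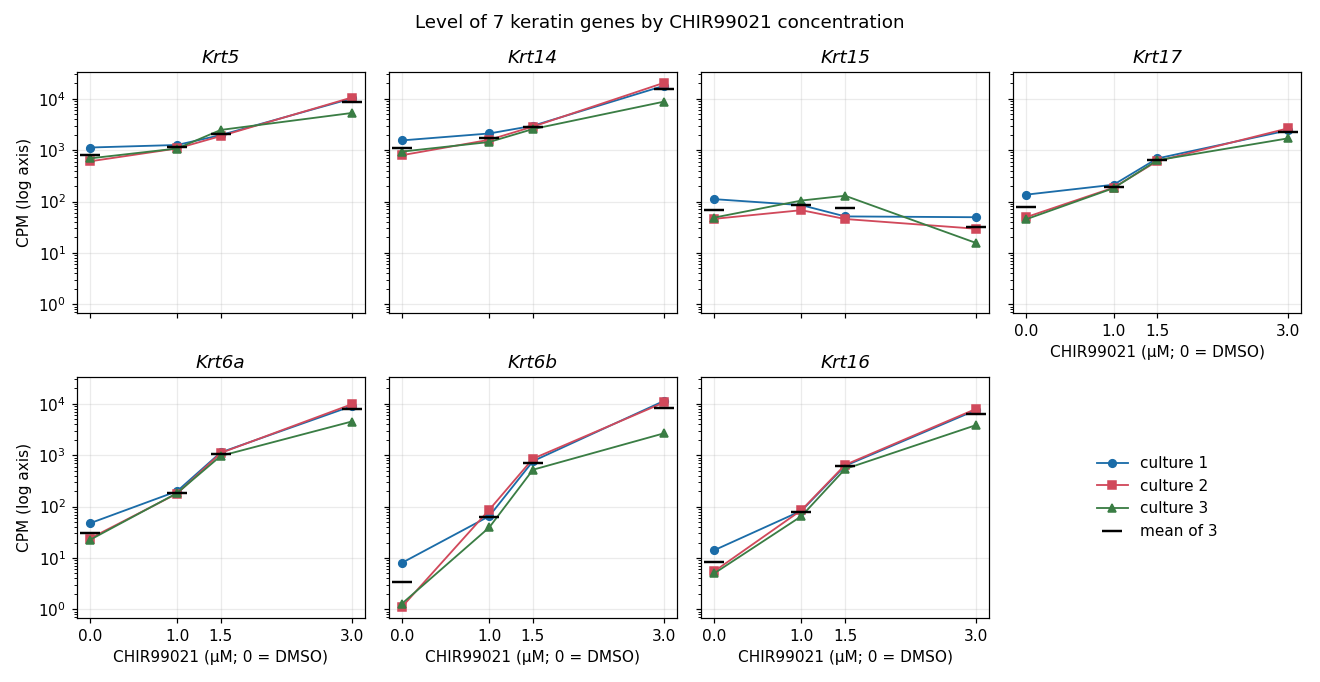
CPM (log axis) of each of the 7 keratins against the CHIR99021 concentration in µM, with DMSO at 0; each line joins the 4 libraries of 1 culture and each bar is the mean of 3 libraries. The means climb at each step in 6 panels, Krt15 stays between 15.6 and 129 CPM, and culture 3 is the lowest of the 3 cultures at 3 µM in all 7 panels.

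Krt14, the type I partner of the basal pair, had the highest level per kilobase of exon of the 7 genes in each group. It measured 1543, 795 and 934 CPM in the DMSO libraries of cultures 1, 2 and 3. At 1 µM it measured 2105, 1586.5 and 1436 CPM, and at 1.5 µM 2972, 2861.5 and 2566 CPM. At 3 µM the values were 17811, 20345 and 8753 CPM. The 1 µM and DMSO ranges overlapped, because the DMSO library of culture 1 lay above the 1 µM library of culture 3, and no other pair of groups overlapped. The mean went from 1091 ± 398 CPM in DMSO to 15636 ± 6094.5 CPM at 3 µM (SD, n = 3). By edgeR, Krt14 was not called at 1 µM (log2 fold change 0.65 ± 0.325, adjusted p = 0.482), was higher at 1.5 µM (1.36 ± 0.329, adjusted p = 0.0132) and was higher at 3 µM (3.84 ± 0.362, adjusted p = 1.86e-05). With culture as a block, Krt14 was called at 1.5 µM too (edgeR adjusted p = 0.00231). In fits without a culture term, the call at 1.5 µM was lost without the DMSO library of culture 2 (adjusted p = 0.0622) or of culture 3 (adjusted p = 0.0520). It was also lost without the whole of culture 1 (adjusted p = 0.0512) or culture 2 (0.1935).

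Krt5, the type II partner, followed Krt14 closely. Its DMSO libraries held 1122, 604 and 689.7 CPM. The 1 µM libraries held 1257, 1076 and 1074 CPM and the 1.5 µM libraries 1959, 1874 and 2467 CPM. At 3 µM Krt5 reached 10093, 10538 and 5269 CPM. Here too the DMSO library of culture 1 overlapped the 1 µM range, and all other pairs of groups were apart. The log2 fold change against DMSO was 0.50 ± 0.288 at 1 µM (edgeR adjusted p = 0.554), 1.38 ± 0.293 at 1.5 µM (adjusted p = 0.00715) and 3.42 ± 0.316 at 3 µM (adjusted p = 1.62e-05). Without the whole of culture 2, Krt5 lost its call at 1.5 µM (edgeR adjusted p = 0.129). In the fit, most of the log2 increase in both genes came with the last step, which is also the widest in concentration. From 1.5 to 3 µM, Krt5 rose by 2.04 ± 0.298 (edgeR adjusted p = 0.00118) and Krt14 by 2.48 ± 0.342 (adjusted p = 0.000892) on the log2 scale. By culture, Krt5 gained 2.37 of 3.17, 2.49 of 4.13 and 1.09 of 2.93 at this step in cultures 1, 2 and 3. In culture 3, Krt5 gained more from 1 to 1.5 µM. For Krt14 the last step held the larger part in each culture. Steps of unequal width do not show a threshold in concentration.

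The RefSeq table of start-site windows (GRCm38.p6) held 2 of the 7 genes, Krt5 and Krt14, and the window listed for Krt14 lies within the gene body in GENCODE M21, so that for Krt5 is shown as the 1 upstream sequence at hand for a gene that rose. It covers the 250 bases before the listed start of Krt5, at chr15:101712906-101713155 on the minus strand, and a TATA-like match, ATAAAA at position -29 from the start, is in capitals.
Krt5: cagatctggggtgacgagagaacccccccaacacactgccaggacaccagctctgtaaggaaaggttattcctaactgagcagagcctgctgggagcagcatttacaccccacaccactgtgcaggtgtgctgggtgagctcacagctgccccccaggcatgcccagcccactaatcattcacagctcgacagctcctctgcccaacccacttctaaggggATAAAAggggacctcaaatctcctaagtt
On both strands, this window held no match to CTTTG (the core of TCF/LEF sites), TGANTCA (AP-1), TGACNNNGC (the antioxidant response element) or TATAAA, whose letters overlap ATAAAA. Among 32851 windows of the same length, CTTTG occurred in 48.6%, TGANTCA in 6.75%, TGACNNNGC in 10.2%, TATAAA in 12.4% and ATAAAA in 17%. Matches are descriptions of letters in these windows and locate no binding site.

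Krt15, the other basal type I keratin, behaved unlike the rest. It measured 111, 46.0 and 48.6 CPM in DMSO and 85.05, 67.8 and 104 CPM at 1 µM. The 1.5 µM libraries held 51.3, 45.7 and 129 CPM, and those at 3 µM 49.5, 29.5 and 15.6 CPM. The 1 and 3 µM groups were the 1 pair without overlap, and 28.3% of genes had all 3 µM libraries below all 1 µM libraries. Within each culture the 3 µM library was below its DMSO library, at 0.445, 0.642 and 0.321 of the DMSO level. The log2 fold change at 3 µM was -1.13 ± 0.527 and did not pass the test (edgeR adjusted p = 0.0910). With DESeq2 the adjusted p was 0.0440, with library sizes in place of TMM factors it was 0.0486 (log2 fold change -1.35), and in edgeR without the 3 µM library of culture 1 it was 0.0417.

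Against 1 µM, Krt15 was called lower at 3 µM, with a log2 fold change of -1.45 ± 0.530 (edgeR adjusted p = 0.0423), beside 24.2% of genes called lower and 52% called in either direction. The other 6 keratins were called higher in this comparison, beside 27.8% of genes called higher. The call of Krt15 was lost in 5 of 12 fits that each left out 1 library, with adjusted p up to 0.113. The libraries concerned were each of the 3 at 1 µM and those of cultures 2 and 3 at 3 µM. It was also lost with no filter on low counts (adjusted p = 0.0821) and without the whole of culture 2 (0.174) or culture 3 (0.102). In culture 3, Krt15 had both its highest level (129 CPM, 1.5 µM) and its lowest (15.6 CPM, 3 µM).

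Krt17 stood between the basal pair and the injury keratins in the size of its change. Its DMSO libraries measured 136, 49.7 and 45.2 CPM, with culture 1 well above the others. The 1 µM libraries lay close together at 212, 186 and 182 CPM, as did the 1.5 µM libraries at 688, 610.4 and 635 CPM. At 3 µM the values were 2433, 2660.5 and 1696 CPM, and no pair of groups overlapped. The log2 fold change of Krt17 was 1.33 ± 0.369 at 1 µM, which was not called in the fit without a culture term (edgeR adjusted p = 0.183), was called with culture as a block (adjusted p = 0.0336) and was called by DESeq2 (adjusted p = 0.0149). At 1.5 µM it was 3.06 ± 0.392 (adjusted p = 0.000722) and at 3 µM 4.88 ± 0.426 (adjusted p = 1.30e-05). Without the whole of culture 2, the call at 1.5 µM was lost (edgeR adjusted p = 0.0553). Krt17 was also called between 1 and 1.5 µM (1.74 ± 0.372, edgeR adjusted p = 0.0289), and with culture as a block (adjusted p = 0.00551). In fits without a culture term it lost that call with no filter (adjusted p = 0.0523) and without any 1 culture (adjusted p up to 0.356). It also lost it in 6 of 12 fits without 1 library, namely any of the 1 or 1.5 µM libraries (adjusted p up to 0.118).

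Krt6a rose at each step in each culture. Its levels were 47.2, 23.9 and 22.4 CPM in DMSO and 199, 179 and 183 CPM at 1 µM. They were 1131, 1103 and 967 CPM at 1.5 µM and 9012, 9797 and 4515 CPM at 3 µM. The 3 libraries of a group lay within a narrow band at 1 and 1.5 µM, and no pair of groups overlapped. The log2 fold changes against DMSO were 2.58 ± 0.340 at 1 µM (edgeR adjusted p = 0.0190), 5.09 ± 0.380 at 1.5 µM (adjusted p = 7.08e-05) and 7.96 ± 0.433 at 3 µM (adjusted p = 1.52e-06).

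Krt16, the type I partner of the Krt6 keratins, tracked Krt6a. It measured 14.1, 5.48 and 5.01 CPM in DMSO and 83.0, 85.3 and 65.05 CPM at 1 µM. The 1.5 µM libraries held 621, 648 and 539 CPM, and those at 3 µM 7553, 7962 and 3848 CPM. Again culture 1 was highest in DMSO, culture 3 was lowest at 3 µM, and no groups overlapped. The log2 fold changes were 3.23 ± 0.419 at 1 µM (edgeR adjusted p = 0.0190), 6.18 ± 0.477 at 1.5 µM (adjusted p = 8.40e-05) and 9.60 ± 0.550 at 3 µM (adjusted p = 1.76e-06). Krt6a and Krt16 were the 2 members called at 1 µM in the fit without a culture term. With culture as a block, both were called too (edgeR adjusted p = 0.00309 for Krt16 and 0.00431 for Krt6a). The fits that left out libraries had no culture term. Both calls were lost in 4 of 12 fits without 1 library, those without the 1 µM library of culture 1 or 2 or the DMSO library of culture 2 or 3 (adjusted p up to 0.107 for Krt16 and 0.118 for Krt6a). Both were also lost in a fit of the 2 groups alone (adjusted p = 0.239 and 0.205). Leaving out the whole of culture 1 (edgeR adjusted p = 0.0964 for Krt16 and 0.1263 for Krt6a) or culture 2 (0.8865 and 0.8603) lost them as well. In those fits 3 and 0 of all genes were called. Without the DMSO library of culture 1, which was the highest DMSO library for all 7 keratins, Krt17 and Krt6b were called at 1 µM as well (edgeR adjusted p = 0.00339 and 0.0216).

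Krt6b had the largest fitted change of the 7 and the least certain baseline. In DMSO it had 181, 11 and 24 counts, which gave 8.04, 1.12 and 1.29 CPM. It measured 65.1, 86.7 and 39.3 CPM at 1 µM, 764, 855 and 521 CPM at 1.5 µM and 11344, 10586 and 2660.3 CPM at 3 µM. No groups overlapped, although the spread at 3 µM was the widest among the rising members relative to its mean (8197 ± 4809.5 CPM, SD, n = 3). The log2 fold change at 1 µM was 4.13 ± 0.808 and was not called in the fit without a culture term (edgeR adjusted p = 0.0904). It was called with culture as a block (adjusted p = 0.00831) and by DESeq2 (adjusted p = 5.24e-05). With the block, 4 of 7 members were called at 1 µM, where 2.55% of all genes were called higher and 5.61% in either direction. At 1.5 µM the change was 7.61 ± 0.937 (adjusted p = 0.000611) and at 3 µM 11.13 ± 1.07 (adjusted p = 2.19e-05).

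**Figure D2:**
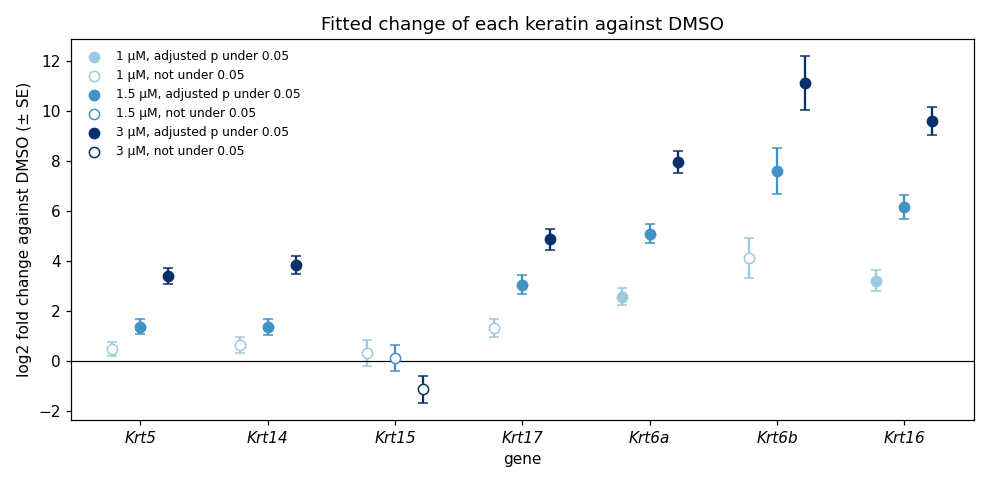
Fitted log2 fold change against DMSO (± approximate SE, derived from edgeR's F) of each keratin at 1, 1.5 and 3 µM. Filled points have an adjusted p under 0.05 and the line at 0 marks no change. At 3 µM the values run from -1.13 (Krt15, open) through 3.42 (Krt5) and 3.84 (Krt14) to 11.13 (Krt6b).

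The steps between neighbouring concentrations were tested in the same fit. From 1 to 1.5 µM, Krt6b (3.48), Krt16 (2.95), Krt6a (2.51) and Krt17 (1.74, log2 fold changes) were called higher, 4 of 7 members beside 4.43% of genes called higher and 5.43% called in either direction. Krt5 and Krt14 had 0.89 and 0.71 at this step (edgeR adjusted p = 0.111 and 0.239), and Krt5 was called with culture as a block (adjusted p = 0.0433), by DESeq2 (0.0363) and in a fit of the 2 groups alone (0.0244). The call of Krt6b was lost in 5 of 12 fits without 1 library, those without any 1 µM library or the 1.5 µM library of culture 1 or 2 (adjusted p up to 0.105), with no filter (0.0772) and without the whole of culture 1 (0.165) or culture 2 (0.352). Krt16 and Krt6a lost their calls without the whole of culture 1 (edgeR adjusted p = 0.1003 and 0.1102) or culture 2 (0.3055 for both). In each of these 2 fits, 0 of all genes were called at this step. From 1.5 to 3 µM, 6 of 7 were called higher, beside 17% of genes called higher and 29.7% in either direction. Log2 fold changes at this step ran from 1.81 for Krt17 to 3.52 for Krt6b. Krt15 had -1.26 ± 0.528 and was not called by edgeR (adjusted p = 0.0977). It was called lower by DESeq2 (adjusted p = 0.0450) and in edgeR with library sizes in place of TMM factors (adjusted p = 0.0487, log2 fold change -1.54). Without all 4 libraries of culture 2, none of the 6 calls at this step passed edgeR's test (adjusted p from 0.0517 to 0.134), though the log2 fold changes still ran from 1.64 to 3.45. The same omission left 3 of 7 members called at 1.5 µM against DMSO. Over all genes it left 345 calls in place of 4544 from 1.5 to 3 µM, and 457 in place of 4177 at 1.5 µM against DMSO.

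Counting groups with no overlap, 4 of the 7 keratins had all 1 µM libraries above all DMSO libraries, a pattern that 11.2% of genes had. At 1.5 and 3 µM, 6 of 7 lay above DMSO, against 24.9% and 30.9% of genes. Fitted as a straight line over concentration (DMSO at 0), the log2 level rose per µM by 1.18 for Krt5, 1.31 for Krt14, 1.67 for Krt17, 2.70 for Krt6a, 3.25 for Krt16 and 3.76 for Krt6b, with adjusted p from 1.47e-06 to 2.30e-05 (edgeR). The slope of Krt15 was -0.42 (adjusted p = 0.0984 by edgeR and 0.0290 by DESeq2). For slopes, 30.2% of genes were called higher and 58.2% in either direction.

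Per kilobase of exon, the order of the 7 keratins in DMSO was Krt14 (620.4 CPM per kilobase), Krt5 (366), Krt17 (49.6), Krt15 (38.8), Krt6a (12.9), Krt16 (5.24) and Krt6b (1.56). Among neighbours in that order, Krt14 and Krt5 overlapped in their ranges over the 3 libraries (452 to 878 against 275 to 511), as did Krt17 and Krt15 and, at the bottom, Krt16 and Krt6b. In each of these pairs the first gene was nevertheless the higher in all 3 DMSO libraries. At 3 µM the order was Krt14 (8894 ± 3467), Krt16 (4124 ± 1448), Krt5 (3929.7 ± 1330.0), Krt6b (3667 ± 2152), Krt6a (3215 ± 1179), Krt17 (1459 ± 325) and Krt15 (17.8 ± 9.64, CPM per kilobase, SD, n = 3). The ranges of Krt14 (4979 to 11573) and Krt16 (2459 to 5087) overlapped, and those of Krt6a (1867 to 4052) and Krt17 (1094 to 1715) did not. The ranges of the 4 keratins from Krt16 to Krt6a overlapped. Within each of the 3 libraries, however, Krt14 was above Krt16, Krt16 above Krt5 and Krt5 above Krt6a. The margin of Krt16 over Krt5 was narrow, with 4826 against 4594, 5087 against 4797 and 2459 against 2398 CPM per kilobase in cultures 1, 2 and 3. The place of Krt6b differed between libraries, from above Krt16 in culture 1 (5076) to below Krt6a in culture 3 (1190.3). By group means, Krt16 stood sixth in DMSO and 2nd at 3 µM, and Krt15 moved from the fourth place to the last.

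Ratios of counts within a library do not depend on scaling between libraries. The log2 ratio of Krt5 to Krt14 was -0.43 ± 0.032 in DMSO and -0.83 ± 0.109 at 3 µM (SD, n = 3), with ranges that did not overlap. At 1.5 µM the ratio stood apart in culture 3, at -0.06 against -0.60 and -0.61 in cultures 1 and 2. The ratio of Krt6a to its partner Krt16 fell at each step without overlap between neighbouring groups. On the log2 scale it was 1.74 to 2.16 in DMSO and 1.07 to 1.49 at 1 µM. It was 0.77 to 0.87 at 1.5 µM and 0.23 to 0.30 at 3 µM. The pair thus moved from about 4 Krt6a reads per Krt16 read in cultures 2 and 3 (4.32 and 4.45, with 3.34 in culture 1) to 1.17 to 1.23. The ratio of Krt6a to Krt6b fell from 3.66 ± 0.975 in DMSO to 0.11 at 3 µM (log2), where culture 3 kept the highest value, 0.76, against -0.33 and -0.11. That ratio rests on a pair with 97.8% identical coding sequence and on 11 Krt6b counts in 1 library. Krt17 relative to Krt14 was highest at 1.5 µM, with -2.12 against -3.96 in DMSO and -2.72 at 3 µM. Krt15 relative to Krt14 went from -4.06 to -9.02.

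**Figure D3:**
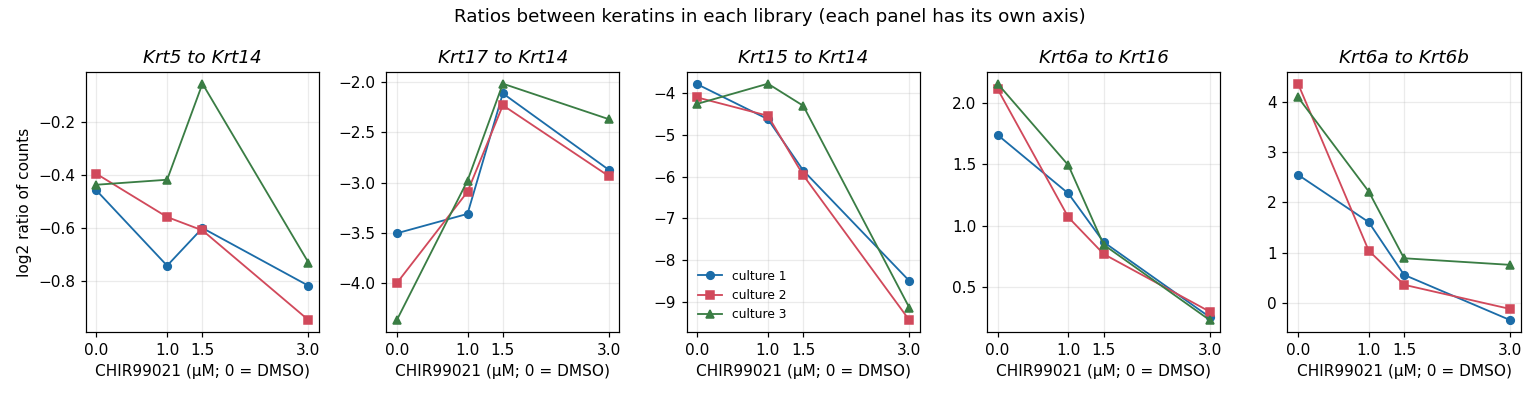
Log2 ratio of counts between 2 keratins in each library against the CHIR99021 concentration in µM (DMSO at 0), with a line for each culture and its own axis for each panel. The ratio of Krt6a to Krt16 falls from 1.74 to 2.16 in DMSO to 0.23 to 0.30 at 3 µM in the 3 cultures.

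The 7 keratins came to hold most of the keratin RNA. They held 0.309, 0.148 and 0.177% of all counts in the DMSO libraries of cultures 1, 2 and 3 and 5.08, 5.22 and 2.46% at 3 µM. Per exon length, they were 46.2, 41.9 and 43.4% of the RNA of all 43 keratins in DMSO and 82.1, 86.0 and 93.1% at 3 µM. Between these, the share was 55.9 ± 2.64% at 1 µM and 68.1 ± 5.92% at 1.5 µM (SD, n = 3). Culture 3, with the lowest level of the 7 keratins at 3 µM, had the highest share. The share of Krt14 was 24.9 ± 1.097% in DMSO and 30.7 ± 2.70% at 3 µM, and that of Krt5 14.8 ± 0.330% and 13.8 ± 1.86%. Krt16 went from 0.200 to 14.4%, Krt6b from 0.0532 to 11.5% and Krt6a from 0.510 to 11.2% (means of 3 libraries). Krt17 held 1.88, 3.86, 6.83 and 5.39% from DMSO to 3 µM, with its highest share at 1.5 µM. Krt15 went from 1.51 to 0.0601%. The type II members together had 0.539 ± 0.0215 times the per-length RNA of the type I members in DMSO and 0.526 ± 0.0447 times at 1 µM. At 1.5 and 3 µM the ratio was 0.707 ± 0.0542 and 0.729 ± 0.0856. The DMSO and 1.5 µM ranges of this ratio did not overlap.

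**Figure D4:**
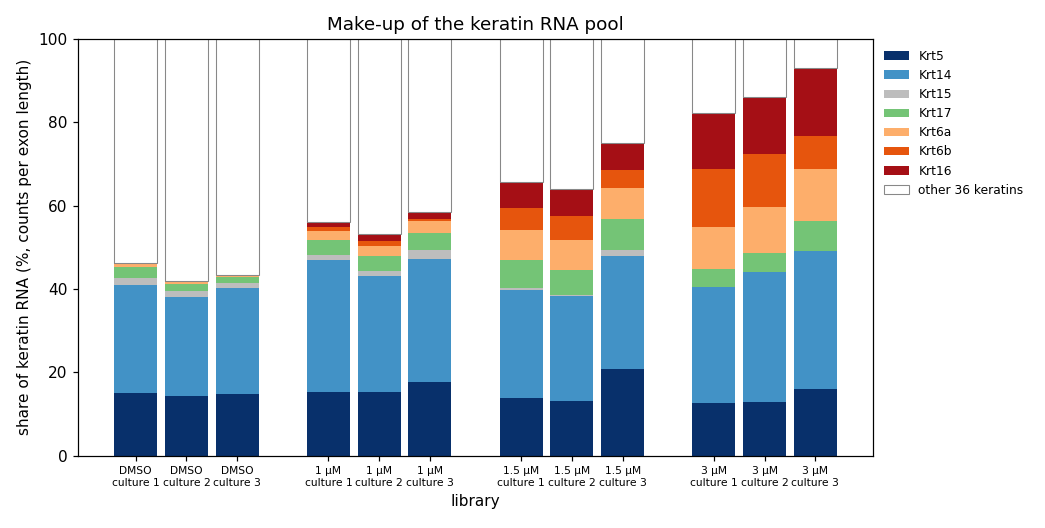
Share of keratin RNA (%, counts per exon length) held by each of the 7 keratins in each of the 12 libraries, with the other 36 keratins in white. The coloured part grows from 41.9 to 46.2% in DMSO to 82.1 to 93.1% at 3 µM, and Krt6a, Krt6b and Krt16, almost invisible in DMSO, make up a large part of the bars at 3 µM.

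The rise of the 6 keratins was seen in each of the 3 cultures. The 3 µM level divided by the DMSO level of the same culture was 8.996, 17.5 and 7.64 for Krt5 and 11.5, 25.6 and 9.37 for Krt14 in cultures 1, 2 and 3. For Krt17 it was 17.9, 53.6 and 37.5, for Krt6a 191, 411 and 202, and for Krt16 534.5, 1452 and 768. For Krt6b it was 1410.4, 9476 and 2058, where the value of culture 2 rests on 11 counts in DMSO. Culture 2 had the largest factor for all 6 rising keratins. In edgeR's test of a level difference between cultures, none of the 7 was called (adjusted p from 0.0661 for Krt6b to 0.423 for Krt5), while 28.8% of all genes were. At an unadjusted p under 0.05 there were 2 of 7, Krt6b and Krt16, and 42.9% of all genes. A difference in slope between cultures was called for none of the 7 (adjusted p from 0.723 to 0.999) and for 0% of all genes, and at an unadjusted p under 0.05 for 0 of 7 and 8.03% of genes. No other tool was run on these culture tests. A p that misses the threshold does not show that the cultures responded alike.

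Culture 3 had the lowest level of the 7 keratins at 3 µM and the highest sum of fibroblast markers in each group. Its epithelial marker sum at 3 µM was 1423 CPM, against 1299 and 1275 CPM in cultures 1 and 2, while its Krt14 level was 8753 CPM against 17811 and 20345. In DMSO, culture 1 had the lowest fibroblast sum (1624 CPM) and the highest levels of all 7 keratins (Krt14 1543 CPM, Krt6a 47.2 CPM). Cultures 2 and 3 differed in fibroblast markers (7372 and 20508 CPM) and were close in Krt14 (795 and 934 CPM) and Krt6a (23.9 and 22.4 CPM). Markers of suprabasal epidermis, the layers that cornify (Krt1, Krt10, Ivl, Lor, Flg and Sprr1b), summed to 4.06 to 12.6 CPM in DMSO. At 3 µM they summed to 16917, 13038 and 819 CPM in cultures 1, 2 and 3, and 6 of 6 were called higher. None of the 6 was at 0 in all libraries of a group.

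Genes that work with these keratins were read from 6 lists, described by counts and medians at 3 µM against DMSO, where the median log2 fold change of all genes was -0.03, 29.9% of genes were called higher and 27.7% lower. The lists too were chosen with earlier results of these data known, so their counts beside these shares are no test of the lists. Of 12 other epidermal keratins tested (15 listed), 10 were higher and 1 lower. In this and the other lists, the filter on low counts keeps a gene that is high in 1 group only. A gene near 0 in DMSO could thus be tested because it was high elsewhere, and it had no room to fall. Krt1 and Krt10, the pair of the suprabasal layers, had means of 0.645 and 5.82 CPM in DMSO and 4009.7 and 5180.0 CPM at 3 µM. Their log2 fold changes were 12.46 ± 1.87 and 9.77 ± 1.601 (edgeR adjusted p = 0.000332 and 0.000563). The 3 µM libraries ranged from 269.8 to 6743 CPM for Krt1 and from 153.9 to 8798 CPM for Krt10, far wider than for Krt14 or Krt16. Krt84 (8.26) and Krt78 (7.10) were the other leading increases, and Krt75 was not called (0.77, adjusted p = 0.225). Krt84 averaged 0.0718 CPM in DMSO and 26.3 CPM at 3 µM, with at most 0.307 CPM in a library of the other groups. It was tested only through its 3 µM libraries, and the size of its change is uncertain. Without the 3 µM library of culture 3, 13 of the list passed the filter, and 11 of these were higher and 1 lower.

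Of 4 simple epithelial keratins tested (5 listed), which are those of luminal cells, 3 fell and 1 rose. Krt19 fell by 2.11 ± 0.302, Krt8 by 0.75 ± 0.217 and Krt18 by 0.48 ± 0.134 on the log2 scale (edgeR adjusted p = 0.000248, 0.0137 and 0.0115). Krt7 rose by 1.92 ± 0.344 (adjusted p = 0.000965).

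Of 15 genes of basal adhesion and identity, 9 were higher and 3 lower, with a median log2 fold change of 0.94. Trp63, the transcription factor p63 that drives Krt5 and Krt14 in stratified epithelia, rose by 2.68 ± 0.329 (edgeR adjusted p = 9.50e-05). The laminin gene Lama3, of the basement membrane, rose by 1.63 ± 0.276, and the Notch ligand Dll1 fell by 1.35 on the log2 scale. The integrin chains Itgb1 (0.02) and Itga6 (0.10) and the cross-linker Plec (-0.40) did not pass the test. Without the 3 µM library of culture 3, 8 were higher and 5 lower. Without the whole of culture 1, 2 or 3, the counts were 9 and 1, 5 and 1, and 7 and 5.

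Of 10 contractile genes of myoepithelial cells, 9 fell and none rose, with a median of -4.57. These are genes of the smooth muscle apparatus that Krt5- and Krt14-expressing mammary basal cells use to expel milk. The oxytocin receptor Oxtr fell by 7.10, and the contractile genes Myl9, Myh11 and Cnn1 had log2 fold changes of -6.99, -5.25 and -5.54. Tpm2 was at 0.44 ± 0.439 (edgeR adjusted p = 0.413). In the same libraries Krt5 and Krt14 rose. With culture as a block, 3 of the 10 were already lower at 1 µM, beside 3.06% of all genes, against none without it.

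Of 17 genes of keratinocyte activation tested (18 listed), 15 were higher and none lower, with a median of 2.93. The list holds cytokines, EGF-family ligands and alarmins that accompany Krt6 and Krt16 in wounded epidermis. It also holds genes of other kinds, such as the transcription factor gene Stat3 and the cornified envelope gene Sprr1b. The cornified envelope gene Sprr1b rose by 10.50 ± 1.03, the cytokine genes Il36a by 11.49 ± 1.11 and Il1a by 7.61 ± 0.429 (edgeR adjusted p = 2.45e-05, 2.19e-05 and 1.59e-06). Their DMSO means were 0.497, 0.0148 and 0.151 CPM, near the floor, so the sizes of these changes are uncertain. For Il36a the DMSO libraries ran from 0 to 0.0444 CPM, and the mean at 3 µM was 76.7 CPM. S100a9, an alarmin, had no count in the 3 DMSO libraries and averaged 163.6 CPM at 3 µM, at least 552-fold higher when DMSO is set at 3 counts in its smallest library. With S100a9 at that bound the median stayed 2.93. Stat3 (-0.30) and Il33 (1.52) did not pass the test.

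All 13 filament partners and cross-linkers tested were higher at 3 µM, with a median of 3.29. This list holds desmosome plaque proteins that anchor keratin filaments, transglutaminases, chaperones and genes of other kinds, such as Tchh and Sfn. Eppk1, a further gene of the list, was not analysed here. The transglutaminase Tgm3 rose by 10.84 ± 1.63, the trichohyalin gene Tchh by 4.94 ± 0.231, Sfn by 4.91 ± 0.508 and the plakin Evpl by 4.39 ± 0.243 (edgeR adjusted p = 0.000332, 8.34e-07, 3.38e-05 and 1.58e-06). At 1.5 µM, 7 of the 12 epidermal keratins, 11 of the 17 activation genes and 10 of the 13 partners were already higher. Those counts were 3, 3 and 2 without culture 2, where 334 of all genes were called higher in place of 2364. At 1 µM the counts were 0, 1 and 0, and with culture as a block 4, 4 and 2, where 2.55% of all genes were higher.

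As a description over the 12 libraries, which share treatment and culture, Pearson's r of log2 CPM was 0.993 between Krt5 and Krt14 and 0.999 between Krt6a and Krt16. Among Krt17, Krt6a, Krt6b and Krt16 it was at least 0.989, and between Krt15 and the other members it ran from -0.523 to -0.391. Ranked by r among 12439 genes with at least 50 counts on average, the genes most like Krt6b were Sprr1b (0.995), Klk6 (0.994) and Hopx (0.991). The genes most like Krt17 were Trim29 (0.993), S100a14 (0.990) and Lgals7 (0.989), and those most like Krt16 were Rrp15 (0.992), Klk6 (0.991) and Pglyrp4 (0.990). Krt6a was followed by Rrp15 (0.993), Grhl3 (0.991) and Zpr1 (0.991). The nearest genes to Krt14 were Cox7a2l, Txndc17 and Blzf1 (each 0.994), and to Krt5 Rpl36al (0.992), Zfp110 (0.991) and Eif3k (0.990). For Krt15 the leading likeness was lower, with Bbs4 at 0.913, RP24-467O4.1 at 0.908 and Asrgl1 at 0.904.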

How the data were processed

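The authors deposited 2 tables, whole-number counts of reads for each Ensembl gene and log2 values. Each deposited log2 value equals log2 of the count scaled to 10 M reads plus 1 (0 values differed), so the counts were used. The submitters' processing notes name TopHat2 2.1, Bowtie 1.1.0, HTSeq, DESeq2 and the build GRCm38/mm10. Counting options, use of strand and the annotation release are not given in the sources used here. Groups follow the labels.

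Genes were kept with filterByExpr on the 4 groups (15316 of 25210). Counts were scaled by TMM and tested with glmQLFit (robust) and glmQLFTest in edgeR 4.0.16 (R 4.3.3), two-sided, with 1 mean per group in a fit of the 12 libraries together. Benjamini-Hochberg adjustment ran over all genes tested, with a threshold of 0.05. Culture differences were tested with group and culture as terms, and slope differences with culture, dose and their product. The edgeR step was tested on simulated data with independent libraries and no culture effect, so that run did not check the fit for paired libraries. Totals of 10.1 to 24.5 M counts set the precision, and no molecular identifiers are described. Replicate libraries of a group differed by more than sampling noise (chi-square per degree of freedom at least 13.8).

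The culture number pairs the libraries, since each number is 1 animal per the series' design text. Deviations from group means correlated at 0.177 to 0.840 in all 18 same-culture pairs (median 0.505), against a median of -0.212 in 36 pairs of different cultures. Deviations of the 3 libraries of a group sum to 0, which forces the second value below 0 when the first is above it. The second value is therefore no separate evidence of pairing. The fit without culture as a block is the one reported, and the blocked value stands beside results whose call differs or whose count differs over 1.5 times.

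Ratios used counts plus 0.5. Exon lengths, 50-base words and coding sequences came from GENCODE M21, which holds 24902 of the gene IDs. Genes named from the lists were the up to 4 called with the largest absolute change at 3 µM and the up to 3 most abundant not called. A gene that this rule selects is not reported here. For likeness, the 3 highest r of log2 CPM (prior count 2) were taken. The members and lists were chosen with earlier results of these data known. Counts of the lists under the alternatives were added after the data were seen. Alternatives were DESeq2 1.42.0, library sizes alone, TMM without keratins, no filter, only the 2 groups compared, culture as a block, and leaving out each library or culture. The fits that left out a library or culture had no culture term, so they do not show how the blocked calls depend on 1 library or culture.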

Additional observations from a re-analysis of the deposited data

How the results depend on the processing

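The 6 rising keratins kept their direction in all alternatives at each comparison, and at 3 µM against DMSO, at 3 against 1 µM and in the slope they kept their calls in all of them. The 8 sign changes were all of Krt15 in comparisons it did not pass, when a library or a culture was left out: its log2 fold change then ran from -0.0396 to 0.86 at 1 µM, from -0.70 to 0.89 at 1.5 µM, and from -0.82 to 0.0764 from 1 to 1.5 µM. Members called at 1 µM numbered 4 with the replicate block, 4 with DESeq2, 0 in a fit of the 2 groups alone and 0 to 4 when a library or culture was left out. With a library or culture left out they numbered 3 to 6 at 1.5 µM, 0 to 5 from 1 to 1.5 µM (2 with no filter) and 0 to 6 from 1.5 to 3 µM. The replicate block changed no other call than those of Krt17 and Krt6b at 1 µM and of Krt5 from 1 to 1.5 µM.

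Over all genes, calls at 1 µM went from 37 to 859 with the replicate block, 485 with DESeq2, 0 with the 2 groups alone and 0 to 119 with libraries or cultures left out. At 1.5 µM, 4177 became 7147 with the block and 457 to 5085 with omissions, and at 3 µM 8814 became 4769 to 9391. From 1 to 1.5 µM, 831 became 3351 with the block, 1646 with DESeq2, 494 with no filter and 0 to 1508 with omissions. From 1.5 to 3 µM, 4544 became 7149 with the block, 2852 with the 2 groups alone and 345 to 5682 with omissions. From 1 to 3 µM omissions gave 3583 to 8697 in place of 7968, and for the slope 5778 to 9062 in place of 8908. Library sizes in place of TMM shifted the median of all genes at 3 µM from -0.03 to -0.23 (log2) and the calls from 4575 higher and 4239 lower to 3395 higher and 5404 lower. The same choice gave 2649 and 5534 in place of 4260 and 3708 from 1 to 3 µM, 1050 and 3860 in place of 2601 and 1943 from 1.5 to 3 µM, and 3233 and 5157 in place of 4624 and 4284 for the slope. The 20 ratio values and 16 shares of keratin RNA moved by less than 1 SD. The cause of these shifts was not tested. Depth limits Krt6b in DMSO, with 11 to 181 counts.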
